A study of Mus musculus with 2 samples.

Results

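Genes for tubulins, kinesins, dynein and dynactin subunits, stathmins, MAP1 proteins and end-binding proteins were selected by gene symbol from the listed m6A positions of day 6 mouse retinal organoids. The symbols began with Tuba, Tubb, Tubg or Tube, Kif or Klc followed by a digit, or with Dync, Dynl, Dctn, Stmn, Map1 or Mapre. Of 8262 named genes listed in either library, 67 matched, with 451 of 57784 listed positions. A site was a listed position with at least 20 reads in replicate 2, and 146 such sites in 45 of the 67 genes were retained, of 16212 sites in 3919 genes of the whole series. Replicate 1 listed 96 of these 146 sites, and 50 sites in 26 genes had at least 20 reads in both libraries.

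The 2 libraries form 1 group (n = 2). Both came from WT organoids of the Rx:GFP line, named for a reporter of the eye-field gene Rx, that received 0.1 µM AGN throughout 6 days of differentiation. Poly(A) RNA was read directly on nanopores with the RNA002 chemistry, each library on its own flow cell and with the same batch label. The labels number the libraries but do not say whether they came from separate cultures, so the spread between them may be technical. No second genotype, time or treatment was analysed here, so every comparison is between genes, sites or the libraries themselves. The study concerns METTL3, the catalytic subunit of the m6A methyltransferase, in retinal development.

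Microtubules are polymers of alpha and beta tubulin that grow from templates of gamma tubulin, carry cargo and pull chromosomes apart. Kinesins are motors that mostly walk towards the growing plus end or take the polymer apart, while cytoplasmic dynein, with its activator dynactin, walks towards the minus end. In dividing retinal progenitors these motors drive both mitosis and the movement of nuclei across the epithelium. N6-methyladenosine (m6A) is a methyl mark on adenosines of messenger RNA that is read by proteins acting on its splicing, translation and decay.

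All listed positions lay on 4 motifs of 5 bases. They are shown because fractions were compared with those of other genes motif by motif, with the adenosine that m6A would occupy in capitals.

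Motif with AGACT letters: agAct

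Motif with GGACA letters: ggAca

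Motif with GGACC letters: ggAcc

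Motif with GGACT letters: ggAct

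Positions are the listed ends, counted from the start of the Ensembl transcript. Among 117 positions in the first 50 bases of a transcript of any gene with a RefSeq start window (GRCm38.p6), the motif began 3 bases before the listed end at 24, and the next most frequent distance, 2 bases, was seen at 3. Where transcript starts match, the capital A is therefore the base just before the listed end. Gene coordinates are given as deposited. The submitters' processing notes name mm10, yet only 2 of the 64 genes found in a RefSeq list for GRCm38.p6, the same assembly, started within 1000 bases of the listed start, so the build of these coordinates is unsettled here.

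The fraction modified is the authors' value between 0 and 1, and the coverage is the number of reads over the position. How many of those reads entered the fraction is not given in the sources used here, and single fractions are printed without an interval. Some fractions are not a whole number of reads over the coverage, such as 0.1579 at 28 reads for Kif20a position 237 in replicate 2. Reads printed beside a fraction are therefore the coverage of the position and not the denominator of the fraction. Median coverage of the listed positions of these genes was 11 reads in replicate 1 and 14 in replicate 2, against 10 and 12 for all other genes. Coverage at a position depends on the number of cells expressing the gene and on the RNA per cell, which cannot be told apart in bulk RNA. The 7 eye-field markers reported here were listed, and 6 of them had a site. None of 5 pluripotency markers was listed, and of 6 neuronal markers only Tubb3 was, with at most 17 reads.

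By motif, the 146 sites comprised 55 GGACA (37.7%, 95% Wilson interval 30.2% to 45.8%), 36 GGACC (24.7%, 18.4% to 32.2%), 36 GGACT (24.7%, 18.4% to 32.2%) and 19 AGACT (13%, 8.49% to 19.4%). Among 16066 sites of all other genes the shares were 35.6%, 22.1%, 24.2% and 18.2%, each inside the corresponding interval. The intervals cover counting error only, and sites on 1 transcript are not independent. Among the 50 sites with at least 20 reads in both libraries, GGACA made up 24% (14.3% to 37.4%), below the 38.5% of all other genes.

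Over all 4 motifs, 54 of the 146 sites (37.0%) had a fraction of at least 0.5 in replicate 2, against 37.5% of the sites of all other genes. At GGACA the count was 35 of 55, where the background was 64.1%. At GGACT it was 12 of 36 against 23.1%, at GGACC 4 of 36 against 21.5% and at AGACT 3 of 19 against 24.1%. Each of these shares has a Wilson interval that includes the background, so no departure from the other genes was detectable at this number of sites. The median fraction in replicate 2 was 0.667 at GGACA in both sets of genes, 0.312 against 0.230 at GGACT, 0.177 against 0.231 at GGACC and 0.200 against 0.263 at AGACT.

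When sites were limited to those with at least 20 reads in both libraries, the medians moved apart. At GGACT, 16 sites of 13 genes had a median of 0.543 in replicate 1 and 0.486 in replicate 2, while 1226 sites of all other genes had 0.265 and 0.249. The difference was 0.258 ± 0.0295 (SD, n = 2). At GGACA, 12 sites had medians of 0.475 and 0.350, below the 0.691 and 0.667 of 1989 other sites, a difference of -0.267 ± 0.0709 (SD, n = 2). Both differences exceeded the SD over libraries, which covers repeat measurement of the same sites and not the choice of sites. With a minimum of 10 reads in both libraries the GGACA difference turned to 0.00425. Among the replicate 2 sites with fewer reads in replicate 1 or none listed there, the median was 0.708 at 43 GGACA sites and 0.237 at 20 GGACT sites, close to the 0.667 and 0.220 of all other genes. At GGACC the difference was -0.0737 ± 0.0264, or -0.0125 without the near-identical Dynlt1 genes, and at AGACT 0.00720 ± 0.0270 (each SD, n = 2), the latter with opposite signs in the 2 libraries. With 2 libraries an exact paired permutation test cannot give a p-value under 0.5.

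**Figure D1:**
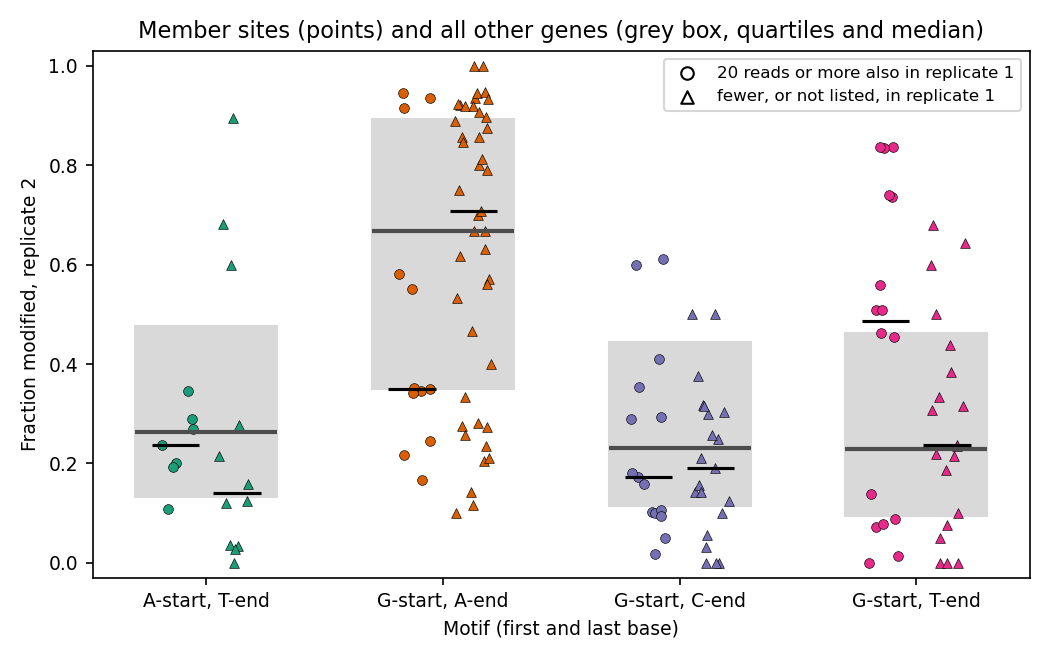
Fraction modified in replicate 2 (vertical axis, 0 to 1) of the 146 sites of the microtubule genes by motif (horizontal axis, named by first and last base). Circles are sites with at least 20 reads in both libraries, triangles the others, short black lines their medians, and grey boxes the quartiles and median of all other genes. Circles lie low at the A-ending motif (median 0.350) and high at the T-ending motif that starts with G (0.486), where the triangles have medians of 0.708 and 0.237.

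At the 50 sites with at least 20 reads in both libraries, 14 (28.0%, 95% Wilson interval 17.5% to 41.7%) had a fraction of 0.5 or higher in both, against 36.1% of the sites of all other genes. By motif these were 7 of 16 GGACT sites (interval 23.1% to 66.8%, background 22.3%) and 5 of 12 GGACA sites (19.3% to 68.0%, background 61.9%). They also included 2 of 15 GGACC sites (3.74% to 37.9%, background 16.6%) and none of 7 AGACT sites (0% to 35.4%, background 21.3%). Only the GGACT interval excluded its background. Of the 7 GGACT sites, 3 lay on the near-identical Dynlt1 genes, described below, which may share reads. Without the Dynlt1 genes the GGACT difference was 0.114, a change of more than 1.5 times.

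The libraries agreed closely at these sites. Pearson's r was 0.958 and Spearman's rho 0.953 across the 50 sites, which share libraries, transcripts and motifs and are described here without a test. The median difference, replicate 2 minus replicate 1, was -0.0120 with an SD over sites of 0.0802. Of the 50 sites, 7 (14%, Wilson interval 6.95% to 26.2%) differed by over 0.1 between libraries, against 26.4% of the sites of all other genes. Those other sites had a Pearson's r of 0.948, a Spearman's rho of 0.937 and an SD of 0.0998. With at least 50 reads in both libraries the order reversed. Pearson's r was then 0.966 at 21 sites of the set and 0.977 at 1806 other sites, with SDs of 0.0722 and 0.0653. Closer agreement than in other genes therefore did not hold at higher coverage. Across the 50 sites, coverage in replicate 2 was a median of 1.96 times that in replicate 1.

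**Figure D2:**
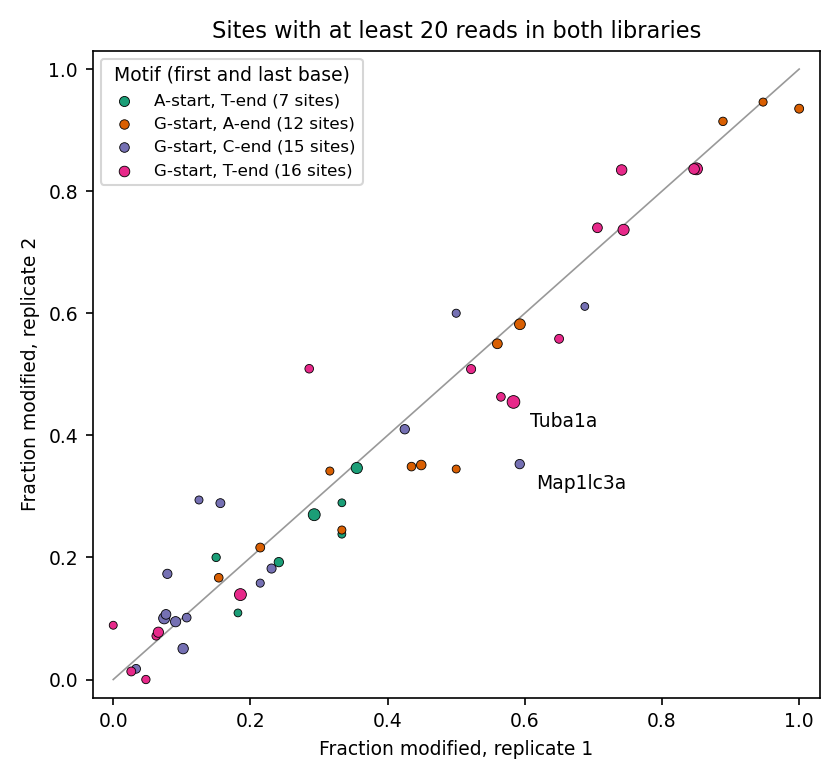
Fraction modified in replicate 1 (horizontal axis) and replicate 2 (vertical axis) at the 50 sites with at least 20 reads in both libraries, coloured by motif, with larger points for higher coverage in replicate 1 and the line of equality in grey. Most points follow the line, and Tuba1a and Map1lc3a lie below it, with 0.584 and 0.455, and 0.593 and 0.353.

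Of the tubulins, 11 genes were listed and 7 had a site. Tuba1a (chromosome 15, 98847718 to 98851584), the main alpha tubulin of the developing nervous system, had the deepest site of the set, a GGACT at position 1133 of ENSMUST00000097014.5. Replicate 1 gave it a fraction of 0.584 from 907 reads, and replicate 2 gave 0.455 from 1750 reads. The difference of 0.129 was the largest among the 125 sites of any gene with at least 500 reads in both libraries, whose median difference was 0.0135. Rps24 followed with 0.0961. The single GGACT of Tuba1c, another alpha tubulin, was also higher in replicate 1, with 0.65 over 40 reads against 0.558 over 77.

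Beta tubulins ranged widely. Tubb4b (chromosome 2, 25112172 to 25114714), a broadly expressed beta tubulin, had a GGACT at position 313 with 0.847 over 147 reads and 0.836 over 375 reads, and a GGACA at position 643 with 0.593 and 0.582. Tubb2b (chromosome 13, 34310731 to 34314449), abundant in neural progenitors and young neurons, had a GGACT at position 463 with 0.0658 over 103 reads and 0.0775 over 174 reads, and a GGACC at position 567 with 0.0909 and 0.0947. Replicate 1 alone also listed a GGACT at position 343 with 0.141 over 97 reads and a GGACA at position 385 with 0.234 over 99 reads. At the GGACT sites listed in both libraries, the mean fraction of Tubb4b was 0.842 ± 0.00742 and that of Tubb2b 0.0717 ± 0.00827 (each SD, n = 2). These values did not overlap, but they describe 1 site of each gene, and the SD covers repeat measurement of that site only. In replicate 2 the quartiles of the GGACT sites of all other genes were 0.0952 and 0.462. The Tubb6 transcript carried a GGACA at position 321 with 1 over 41 reads and 0.935 over 80 reads, and a GGACC at position 713 with 0.231 and 0.182. Tubb4a had 2 GGACC sites in replicate 2 alone, with 0.125 and 0.143 over 25 and 26 reads.

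Tubb3, the neuronal beta tubulin, Tubb2a and Tuba4a were listed below 20 reads in both libraries, and Tuba1b and Tubb5 were not listed at any coverage. Tubulin genes have near-identical copies whose reads can be shared or split, and the aligner is not given in the sources used here. The tubulin values are therefore uncertain as to the gene of origin.

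Gamma tubulin (Tubg1, chromosome 11, 101010764 to 101017245), which nucleates microtubules at the centrosome, had 5 sites between positions 1093 and 1699. The GGACC at position 1630 had 0.5 over 24 reads and 0.6 over 61 reads. Another GGACC 69 bases further on, at position 1699, had 0.214 and 0.158, so position 1699 minus position 1630 came to -0.286 and -0.442. The GGACC at position 1093 differed more between libraries (0.125 and 0.294), and its order against position 1699 was not the same in both. The GGACA at position 1492 had 0.316 and 0.342.

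Kinesin genes held 59 of the 146 sites, in 12 of 21 listed genes, and 26 had a fraction of at least 0.5 in replicate 2. The background over all motifs was 37.5%, but 30 of the 59 sites were GGACA, a larger share than the 35.6% of all other genes. Their 30 GGACA sites had a median of 0.806. Of these, 22 had a fraction of at least 0.5 (background 64.1%) and 10 of at least 0.9 (background 24.2%). In all, 14 sites of the set reached 0.9 (9.59%, against 10.6% of all other genes), and all 14 were GGACA, which is 25.5% of the GGACA sites of the set against 24.2% in all other genes. The 13 GGACC sites of kinesins had a median of 0.156 and the 9 GGACT sites 0.219. A fraction of at least 0.5 was listed at 1 of these GGACC sites (background 21.5%) and 1 of these GGACT sites (23.1%). It was also listed at 2 of 7 kinesin AGACT sites (24.1%).

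Few sites of the kinesins that act in mitosis and cytokinesis reached 20 reads in replicate 1. Kif20a (chromosome 18, 34757666 to 34766330), which acts at the central spindle in cytokinesis, had the most sites, 12 on 2 transcripts. On ENSMUST00000167161.7 the GGACA at position 645 was at 1 in both libraries, from 7 and 28 reads. A GGACA at position 1865 had 1 over 29 reads in replicate 2 and was not listed in replicate 1. Neighbouring AGACT sites at positions 237 and 311 had 0.158 and 0.0370 over 28 reads each in replicate 2. The second transcript, ENSMUST00000166044.1, repeated 3 GGACA sites at positions shifted by 2 bases, with 0.333, 0.790 and 0.667 in replicate 2 against 0.235, 0.708 and 0.667 on the first. Reads may be split between these isoforms, so the pairs were not read as independent.

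Kif23, a subunit of the central spindle complex, had 4 sites in replicate 2, of which 3 GGACA reached 0.947, 0.857 and 0.923 over 24, 27 and 31 reads. In replicate 1 the same sites had 0.75, 0.5 and 1 over 5 to 8 reads. Kif4, a motor on chromosome arms, had GGACA sites with 0.889 and 0.906 over 35 and 38 reads in replicate 2 and with 0.667 and 0.889 over 8 and 12 reads in replicate 1. Kif2c (chromosome 4, 117016836 to 117039836), which removes tubulin from microtubule ends at centromeres, had 7 sites. Its 4 GGACA sites ranged from 0.560 to 0.933 in replicate 2, and its 2 AGACT sites had 0.0278 and 0.238.

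Kif11, the motor that separates spindle poles, ranged from 0.143 to 0.800 over 5 sites of 21 to 25 reads. Its GGACA at position 3104 had 0 over 8 reads and 0.533 over 25 reads. Kif22 (chromosome 7, 126626901 to 126641643), a chromosome-bound kinesin, was the only mitotic kinesin with 3 sites in both libraries. Its GGACA at position 1021 had 0.435 over 34 reads and 0.349 over 67 reads. The GGACC at position 1428 had 0.0333 and 0.0175, and the GGACT at position 1777 had 0.0263 and 0.0132. No site of Kif22 reached 0.5 in either library, and its GGACA sites at positions 895 and 1021 had 0.275 and 0.349 in replicate 2. In Kif20a, Kif23, Kif4, Kif2c and Kif11, replicate 2 sites of at least 0.5 were all GGACA, except an AGACT of Kif4 at 0.682. The difference from Kif22 therefore depends on the motifs present as well as on the gene.

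Of the transport kinesins, Kif5b (chromosome 18, 6201002 to 6242174), a heavy chain of conventional kinesin, had 5 sites. The GGACA at position 5622 had 0.333 over 24 reads and 0.245 over 81 reads, and the AGACT at position 5032 had 0.333 and 0.290. GGACA sites at positions 3904 and 4393 of the same transcript were higher in replicate 2, with 0.813 and 0.896 over 47 and 55 reads, and only the former was listed in replicate 1, with 0.857 over 13 reads. Kif5c, its neuronal relative, had a GGACA at position 6833 with 0.5 over 22 reads and 0.345 over 48 reads. Klc1, a light chain that links this motor to cargo, had 4 GGACA sites, from 0.4 to 0.857 in replicate 2 and from 0.333 to 1 over 10 to 13 reads in replicate 1.

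Kif1a (chromosome 1, 92943186 to 93029673), a carrier of synaptic vesicle precursors, had 10 sites between positions 4613 and 7980. The GGACA at position 7943 had 0.938 over 16 reads and 0.944 over 37 reads, while 4 of the other sites were listed with a fraction of 0 in replicate 2. The set had 8 sites with a fraction of 0, which were 5.48% of its sites against 3.21% in all other genes.

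Cytoplasmic dynein chains had 15 sites in 5 genes. Dync1i2 (chromosome 2, 71042050 to 71093647), an intermediate chain that holds the motor to its cargo, carried a GGACA at position 1686 with 0.947 over 24 reads and 0.946 over 48 reads. Only 15 bases further on, a GGACA at position 1701 had 0.281 over 48 reads in replicate 2 and was not listed in replicate 1. Its GGACT at position 455 had 0 over 22 reads and 0.0889 over 48 reads. The heavy chain Dync1h1 had 1 site, a GGACT at position 14180 with 0.643 over 23 reads in replicate 2, and was not listed in replicate 1. Dync1li1 and Dync1li2, the light intermediate chains, had 3 and 5 sites, none above 0.571 in replicate 2.

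Among the dynein light chains, Dynll1 had the deepest coverage, exceeded in the set by Tuba1a alone. Dynll1 (chromosome 5, 115435169 to 115439058), a small dimeric subunit with many partners beyond dynein, had 3 sites within 65 bases. The GGACT at position 454 was highly modified in both libraries, with 0.85 over 437 reads and 0.837 over 723 reads. A second GGACT 38 bases away, at position 492, had 0.185 over 437 reads and 0.139 over 724 reads. The later site minus the earlier one came to -0.681 ± 0.0231 (SD, n = 2), a difference beyond the spread between libraries at nearly the same coverage. The AGACT at position 519 had 0.293 and 0.270. The set had 6 pairs of same-motif sites on 1 transcript with at least 20 reads in both libraries. Of these, this was the only one that differed by at least 0.5 the same way in both libraries (16.7%, and 16.7% in all other genes). Pairs with fewer reads in replicate 1 were not counted.

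The 3 copies Dynlt1b, Dynlt1c and Dynlt1f of a light chain gene on chromosome 17 showed the same arrangement. In each of them a GGACC lay 203 bases before a GGACT. The GGACT had 0.744 and 0.737 in Dynlt1b over 222 and 346 reads, 0.741 and 0.835 in Dynlt1c over 129 and 193 reads, and 0.706 and 0.740 in Dynlt1f over 73 and 88 reads. The GGACC had 0.0743 and 0.100, 0.102 and 0.0506, and 0.0769 and 0.107. Within each copy the GGACT exceeded the GGACC in both libraries. The GGACT values of Dynlt1b overlapped those of Dynlt1c and of Dynlt1f, whereas both values of Dynlt1c lay just above those of Dynlt1f. Another copy, Dynlt1a, had a GGACC with 0.0556 over 41 reads in replicate 2. The copies may share reads, so they do not count as independent observations.

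**Figure D3:**
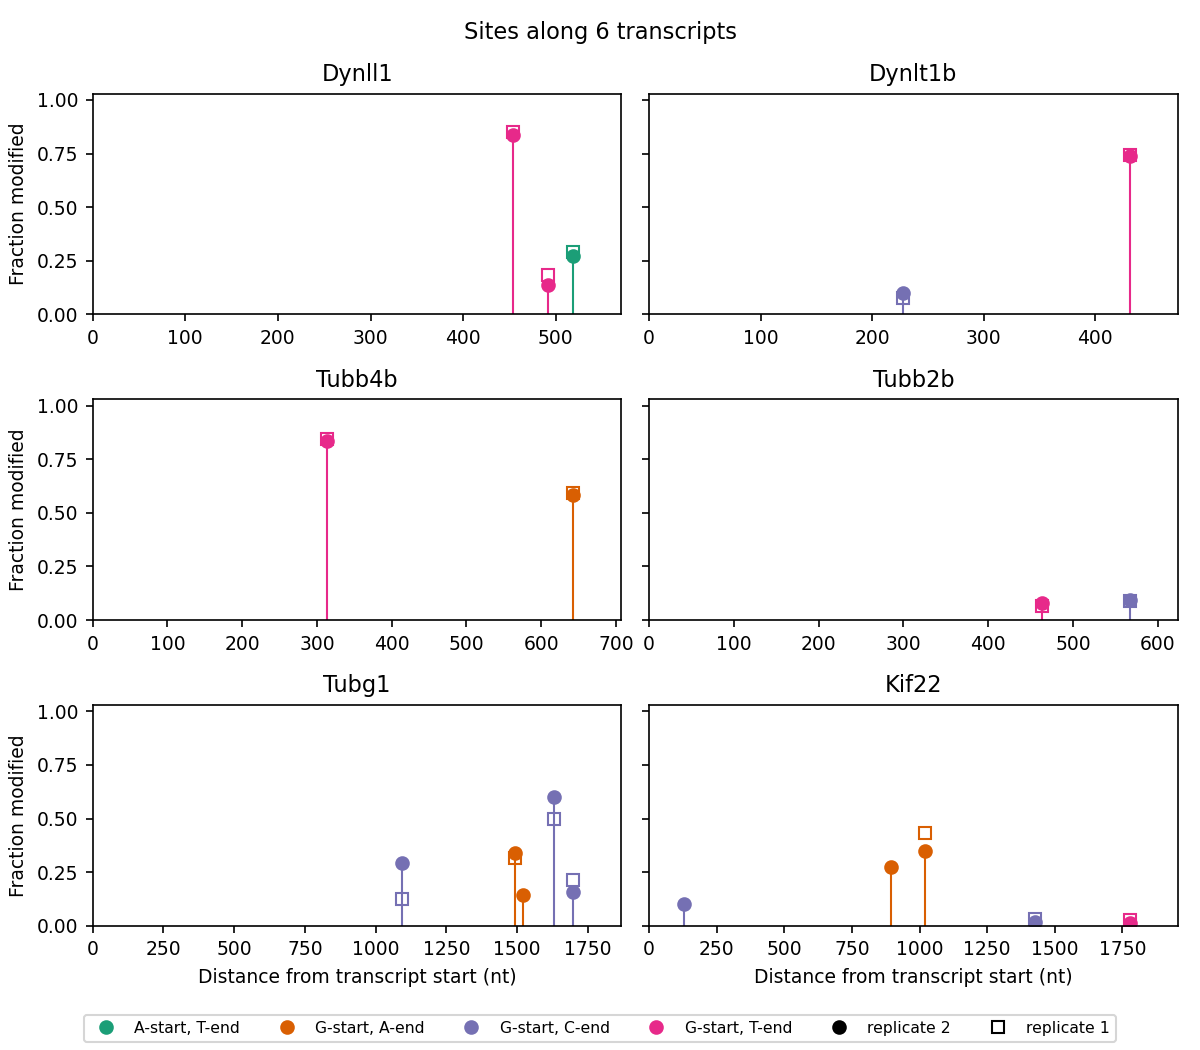
Fraction modified (vertical axis) at the sites of 6 transcripts by distance from the transcript start in nucleotides (horizontal axis), coloured by motif. Filled circles are replicate 2 and open squares replicate 1. In Dynll1 the 2 sites of the same motif stand at 0.837 and 0.139 in replicate 2, and in Tubb2b both sites stay below 0.1.

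Dynll2 (chromosome 11, 87870351 to 87878359), the close relative of Dynll1, had 7 sites on 2 transcripts. The GGACT sites at positions 631 and 689 of ENSMUST00000020775.8 had 0.565 and 0.286 in replicate 1 over 34 and 33 reads, but 0.463 and 0.509 in replicate 2 over 98 reads each. Their order changed between libraries. The GGACA at position 2160 of the second transcript, ENSMUST00000178105.2, had 0.889 over 30 reads and 0.914 over 54 reads. Dynlrb1, the roadblock light chain, had a GGACA with 0.560 over 76 reads and 0.550 over 106 reads, and the GGACC of Dynlt2b had 0.688 over 20 reads and 0.611 over 27 reads.

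All 6 listed dynactin genes had a site, 17 in total, of which 9 were GGACT, 6 GGACC, 1 GGACA and 1 AGACT. A fraction of at least 0.5 in replicate 2 was listed at 2 of the 9 GGACT sites (background 23.1%), at none of the GGACC sites (21.5%) and at the GGACA site (64.1%). Dctn2 (chromosome 10, 127102237 to 127117819), the subunit known as dynamitin, had a GGACT at position 1556 with 0.522 over 47 reads and 0.509 over 117 reads, and a GGACC at position 590 with 0.107 and 0.101. Dctn6 (chromosome 8, 34557574 to 34575950), at the pointed end of the complex, had 3 sites within 94 bases that ranged from 0.0476 to 0.15 in replicate 1 and from 0 to 0.2 in replicate 2. Replicate 1 alone listed AGACT sites of Dctn6 at positions 837 and 1007, with 0.227 and 0.588 over 28 reads each. The GGACC of Dctn3 had 0.156 over 42 reads and 0.289 over 64 reads. Dctn1, which binds dynein and microtubules, had 2 GGACT sites with 0.308 and 0.5 over 23 and 29 reads in replicate 2.

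Stmn1 (chromosome 4, 134195631 to 134201154), which binds free tubulin dimers and destabilises microtubules, had 1 site, an AGACT at position 672 with 0.355 over 231 reads and 0.347 over 483 reads. Stmn3 was listed below 20 reads, and the neuronal Stmn2 and Stmn4 were not listed. Of the MAP1 family, Map1b (chromosome 13, 99557954 to 99653048), which stabilises microtubules in growing axons, had 3 sites. The AGACT at position 11366 had 0.182 over 20 reads and 0.109 over 79 reads, the GGACT at position 10816 had 0.714 over 14 reads and 0.679 over 66 reads, and the AGACT at position 9575 had 0.571 over 7 reads and 0.895 over 26 reads.

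Map1lc3a and Map1lc3b were matched by name. They encode light chains that also mark autophagosomes. The GGACC of Map1lc3a at position 1007 had 0.593 over 56 reads and 0.353 over 80 reads, a difference of 0.240 that was the largest of the 50 sites. In Map1lc3b (chromosome 8, 122317100 to 122325499) the GGACC at position 153 had 0.425 over 56 reads and 0.410 over 143 reads, and the GGACA at position 526 had 0.449 and 0.351. Mapre1 (chromosome 2, 153583194 to 153615230), the end-binding protein that tracks growing plus ends, had 3 sites with 20 reads in both libraries, a GGACA of 0.214 and 0.216, a GGACC of 0.0789 and 0.173, and an AGACT of 0.241 and 0.192. Replicate 1 alone listed a GGACA of 0.375 over 39 reads and a GGACT of 0.0270 over 43 reads. Below 20 reads, a GGACA at position 4596 had 1 over 12 reads in replicate 2 and an AGACT at position 6587 had 0.667 over 10 reads in replicate 1. Mapre2 had 3 sites in replicate 2, from 0 to 0.211.

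To set roles side by side irrespective of motif, each site was ranked among the sites of all other genes with the same motif and at least 20 reads in both libraries. The median percentile was 78.3 ± 3.19 at 2 sites of alpha tubulins, 63.8 ± 14 at 15 sites of dynein light chains, 61.9 ± 0.961 at the single Stmn1 site, 50.8 ± 7.42 at 4 sites of the MAP1 family, 46.9 ± 6.52 at 2 sites of Dync1i2, 44.4 ± 3.05 at 6 sites of beta tubulins, 43.8 ± 6.83 at 4 sites of gamma tubulin, 28.7 ± 2.40 at 6 sites of dynactin, 27.1 ± 14.6 at 3 sites of Mapre1 and 26.0 ± 3.95 at 7 sites of kinesins (each SD, n = 2). Over all 50 sites it was 40.8 ± 0.976. The low rank of kinesins and dynactin did not hold for the replicate 2 sites of these roles, where the medians were 49.7 at 59 kinesin sites and 56.7 at 17 dynactin sites. For the end-binding genes the median was lower still, 14.5 at 6 sites. The dynein light chains had 46.1 at their 20 replicate 2 sites.

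Coverage mostly increased towards the 3′ end, from which direct RNA reads begin. Of 23 transcripts with at least 3 sites in replicate 2, 19 had their highest coverage at the last site (82.6%, against 76.6% of such transcripts of all other genes). Map1b went from 26 reads at position 9575 to 79 at position 11366, and Kif1a from 20 at position 4613 to 37 at position 7980. Dynll2 and Map1lc3b went the other way. Coverage of Dynll2 was 98 reads at position 689 and 37 at position 1001 in replicate 2, and 33 and 14 in replicate 1. Coverage of Map1lc3b was 151 reads at position 545 and 86 at position 1385 in replicate 2, and 66 at position 526 and 38 at position 1256 in replicate 1. A ratio of highest to last coverage of at least 1.5 was found in these 2 of 23 transcripts (8.70%), and in 5.65% of those of all other genes.

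**Figure D4:**
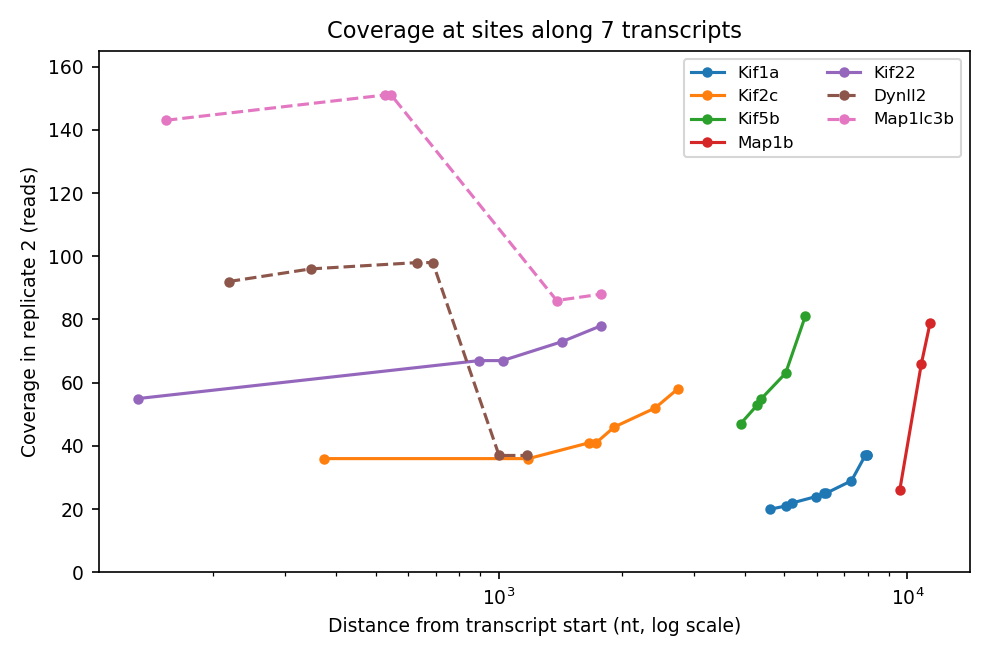
Coverage in replicate 2 (reads, vertical axis) at the sites of 7 transcripts by distance from the transcript start (nucleotides, log scale). Solid lines are transcripts whose coverage increased to the last site, such as Map1b from 26 to 79 reads, and dashed lines are Dynll2 and Map1lc3b, which fell to 37 and 88 reads at their last sites.

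Listing differed between libraries even where flanking positions had reads. Replicate 1 listed 65 positions of these genes with at least 20 reads, and 8 of them (12.3%, background 8.11%) were not listed in replicate 2 although positions on both sides had at least 20 reads there. One was the GGACT at position 1537 of Map1lc3b, at a fraction of 1 and 40 reads in replicate 1. Its flanking positions held 86 and 88 reads in replicate 2. Another was the GGACA at position 763 of Dctn2, with 0.923 over 36 reads, between positions of 91 and 117 reads. In the opposite direction this applied to 5 of the 146 sites (3.42%, background 2.1%). The coverage at an unlisted position itself is not known. A missing position was therefore not read as an unmodified one.

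Of the 146 sites, 46 fell short of 20 reads in replicate 1 and 50 were absent from its list (34.2%, against 25.2% of the sites of all other genes). At the coverage limit of replicate 2, 7 positions had exactly 20 reads, with fractions from 0 to 0.75, and 6 positions just outside it had 19 reads, with 0.0667 to 0.944. Another 22 of the 67 genes were listed without a site. Of 96 protein-coding RefSeq genes whose symbols follow the same rule, 32 were not listed, among them Map1a, Kif5a and Dync2h1.

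A separate list of 97 microtubule genes outside these families was examined in the same way. Of these, 70 were listed, 29 had a site in replicate 2 and 7 had a site in both libraries. Their 150 sites included 42 with a fraction of at least 0.5 in replicate 2 (28.0%, against 37.5% of the sites of all genes outside the motor and tubulin families). Nde1 and Pafah1b1, which regulate dynein, each had a GGACA site at or near complete modification. Position 740 of Nde1 had 1 over 25 reads and 1 over 55 reads, and position 812 of Pafah1b1 had 1 over 23 reads and 0.976 over 53 reads. Their other GGACA sites with 20 reads in both libraries had 0.842 and 0.843 (Nde1) and 0.429 and 0.414 (Pafah1b1). Among all genes outside the motor and tubulin families, 24.2% of GGACA sites reached 0.9 in replicate 2. At GGACA the list had medians of 0.866 and 0.806 at 8 sites with 20 reads in both libraries, and at GGACT 0.143 and 0.140 at 8 sites. Over all replicate 2 sites of the list, the medians were 0.6 at 49 GGACA sites and 0.170 at 39 GGACT sites, both below the 0.667 and 0.231 of the remaining genes. The medians at 35 AGACT and 27 GGACC sites were 0.2 and 0.214, against 0.265 and 0.231.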

How the data were processed

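Direct RNA libraries of 2 samples were analysed. The deposited fraction modified is a fraction from 0 to 1 and the deposited coverage is a count of reads per position, per the file headers, and no listed position had fewer than 5 reads. The base caller, aligner and modification caller are not given in the sources used here. The submitters' processing notes name mm10. Only the plus tables were used, and the minus tables held no position of these genes.

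Positions were matched between libraries on transcript version and listed end (Python 3.11.15, pandas 2.3.3, scipy 1.17.1). Sites needed 20 reads. Members and other genes were compared within a motif by medians, shares with 95% Wilson intervals and mean ± SD over libraries. Known shifts of a median were recovered from simulated data. The simulated sites were independent and, for members, far more numerous per motif than here, so this does not bear on differences between few sites. The rule for named genes took the 25 with the most sites of 20 reads in both libraries, ties by coverage, the 6 highest and 6 lowest sites with 50 reads in both, and genes with sites on several transcripts. Other genes named, the Tuba1a comparison at 500 reads and the near pairs were chosen after their values were seen. The genes and lists were chosen with earlier results of these data known. Alternatives were coverage of 10 or 50 reads, 1 transcript per gene, other thresholds and leaving out genes or a library.

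One item of the marker list is not reported here.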

Additional observations from a re-analysis of the deposited data

How the results depend on the processing

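With a coverage minimum of 10 reads there were 250 sites in replicate 2 and 83 in both libraries, and with 50 reads 54 and 21. The GGACA difference reversed to 0.00425 with 10 reads, was -0.128 with 50 reads and became 0 with all replicate 2 sites. The AGACT difference reversed to -0.0587 with 10 reads, to -0.0133 with each gene counted once and to -0.0632 with all replicate 2 sites. When 1 replicate was left out, the AGACT difference lay between -0.0119 and 0.0263. Those of GGACA (-0.317 and -0.216), GGACC (-0.0924 and -0.0550) and GGACT (0.237 and 0.279) kept their sign. The GGACT difference stayed above 0 under every alternative run, from 0.0823 with all replicate 2 sites to 0.471 with 50 reads, and was 0.188 without the alpha and beta tubulins. The GGACC difference stayed below 0 and was -0.0125 without the Dynlt1 genes. With a threshold of 0.7, 16.0% of sites were high in both libraries, against 22.8% in all other genes. Median percentiles over all replicate 2 sites were 37.5 for beta tubulins, 36.9 for gamma tubulin, 49.7 for kinesins, 46.1 for dynein light chains, 56.7 for dynactin, 14.5 for the end-binding genes and 46.4 for all genes of the set. The cause was not tested. The use of all replicate 2 sites and the removal of Dynlt1 were chosen after seeing the data. The motif shares stayed within their intervals under the alternatives run. No paired analysis was possible because the samples form 1 group, so replicate numbers pair no samples across groups. Below 20 reads in a library, single fractions are imprecise.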
